A study of Rattus norvegicus with 50 samples.

Results

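The genes described here are 10 markers of T cells and of cytotoxic lymphocytes, measured in the lungs of young rats after inhalation of titanium dioxide (TiO2) nanoparticles. They are Cd3d, Cd3e and Cd3g, which encode chains of the CD3 complex, the co-receptor genes Cd4, Cd8a and Cd8b, the regulatory T cell gene Foxp3, and Gzmb, Prf1 and Nkg7, which belong to the killing granules. Each was taken from the gene spots of the array that carry its name. All 10 passed the filter on dim probes, among 25208 genes tested.

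Gene expression was measured on 50 one-colour Agilent arrays, 1 per rat. The rats were male F344, an inbred laboratory strain, 12 weeks old, and breathed through the nose only, for 6 hours per day and 5 days per week during 4 weeks. Control rats received air and exposed rats an aerosol of TiO2 P25 nanoparticles at 10 mg/m3. Groups of 5 control and 5 exposed rats were studied when exposure ended (D0) and after a recovery of 3, 28, 90 or 180 days, called D3, D28, D90 and D180. The RNA came from the whole accessory lobe, a mixture of all lung cells in which lymphocytes are a minority.

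T cells recognise antigen through a receptor whose signal is passed into the cell by the CD3 chains, which other blood cells largely lack at their surface. CD4 T cells help other immune cells and see antigen on MHC class II molecules, while CD8 T cells kill cells that show antigen on MHC class I molecules. In rats these co-receptors are not limited to T cells, since macrophages also carry CD4 and natural killer (NK) cells also carry the alpha chain of CD8. Foxp3 is the transcription factor that defines regulatory T cells. Perforin (Prf1) opens the membrane of a target cell and granzyme B (Gzmb), a protease, triggers its death. Nkg7 is a membrane protein of the same granules, and these genes are shared by CD8 T cells and NK cells. In whole lung RNA, a change in the number of such cells and a change in the RNA per cell cannot be told apart.

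The median processed signal of an array ran from 198 to 473 in linear fluorescence units, and 68.7% to 84.5% of gene spots were well above background. The type 2 pneumocyte genes Sftpc, Sftpb and Sftpa1 were well above background on all 50 arrays, and these genes mark lung tissue. Of the 10 genes, 8 were well above background on every array, Cd8b on 49 and Foxp3 on 41, and none was saturated. The arrays lay on 7 slides. D0, D3 and D28 shared 4 slides and D90 and D180 shared the other 3. Exposed replicate 1 of D3 was the exception and lay with D90 and D180. Slide accounted for 99% of the first principal component, so values with slide as a block are given beside the main ones, and levels at D90 and D180 cannot be told apart from slide when set against earlier days. Normalized log2 values are used throughout. Differences between 2 probes in a rat serve only to compare groups of rats, and no probe's level is ranked over that of another.

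For every day, exposed rats were set against control rats to ask whether inhaled particles changed the lymphocyte genes of the lung and for how long. A gene was called differentially expressed (a DEG) at a fold change (FC) of at least 1.5 with an adjusted p under 0.05 over all genes tested. At D0 the CD3 genes were higher in exposed rats while Cd4 and the killing granule genes were close to the control level. Cd3g was the 1 DEG among the 10 genes at D0, over-expressed with FC = 1.59, and 2.77% of all genes were over-expressed by the same rule. None of the 10 was a DEG on any later day, and the share of all genes over-expressed was 1.98% (D3), 0.861% (D28), 0.246% (D90) and 0.246% (D180). At an unadjusted p under 0.05 in limma, 3 of the 10 genes differed at each of D0, D3 and D28, and none at D90 or D180. The share of all genes at that limit was not computed, so these counts are not read as a result about the 10 genes. The median log2 change of the 10 genes was 0.23 (D0), 0.08 (D3 and D28), 0.01 (D90) and -0.07 (D180), and that of all genes lay between -0.01 and 0.004.

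**Figure D1:**
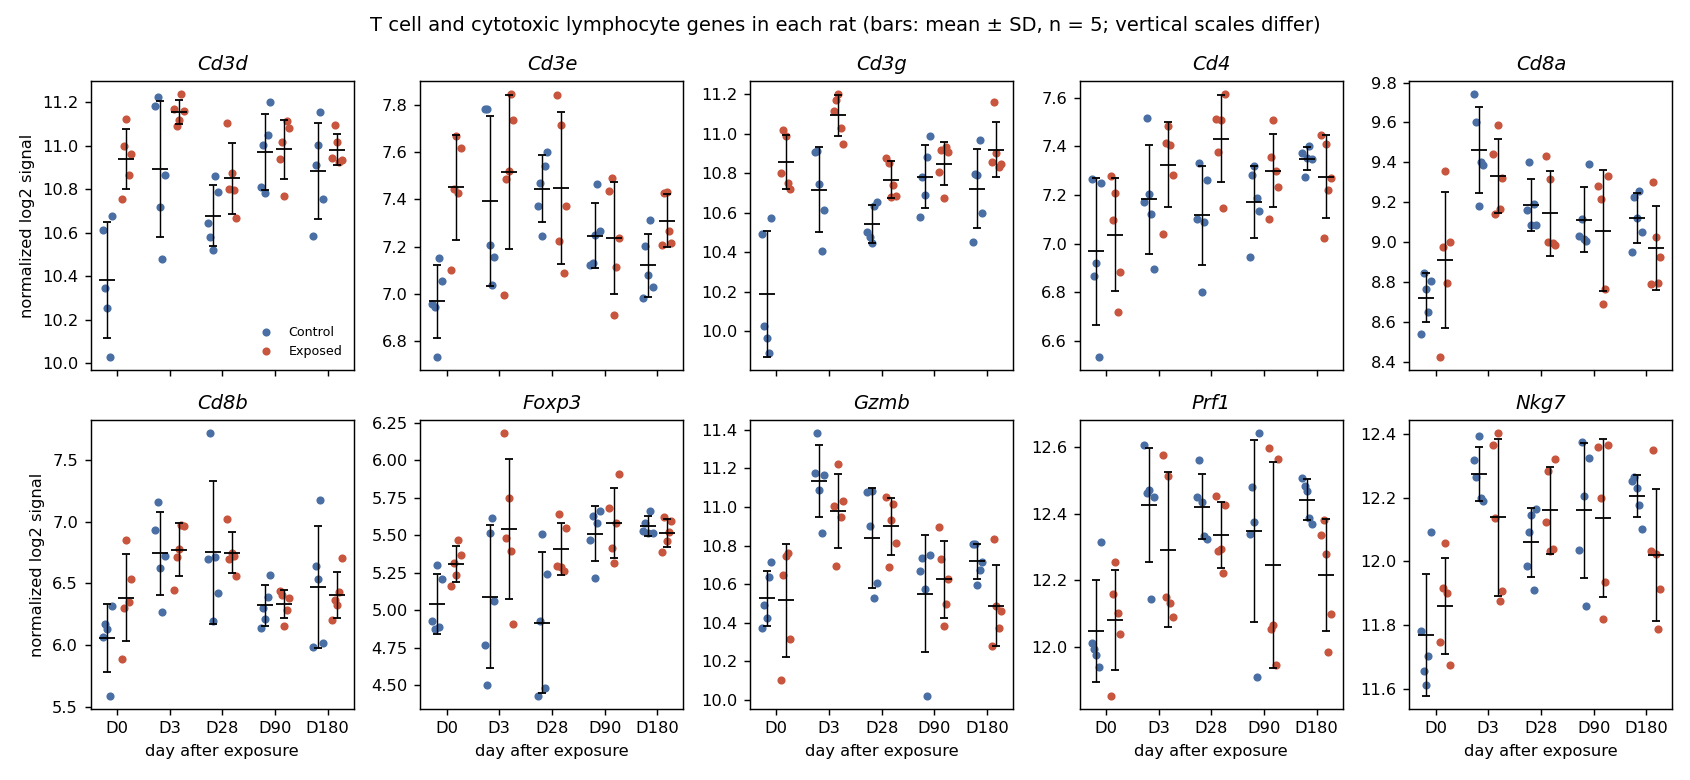
Normalized log2 signal (vertical axis, scale set for each gene) of the 10 genes in each of the 50 rats by day after exposure, with control rats in blue and exposed rats in red, and with bars for the mean ± SD of 5 rats. Cd3d and Cd3g of the exposed rats lie above all control rats at D0, and the control rats of D0 have the lowest group mean for 8 of the 10 genes. The share of all genes with their lowest mean in that group was not computed.

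The CD3 gamma, delta and epsilon chains pair inside the T cell receptor complex and carry the motifs that start its signal. Their probes lie on chromosome 8 of the rn4 build, Cd3g at 47924376-47924435 on the minus strand, Cd3d at 47936669-47936728 on the plus strand and Cd3e at 47950313-47950372 on the minus strand. Cd3g and Cd3d were each read from 10 spots per array and Cd3e from 2. Whether a probe lies in an untranslated exon was not analysed here.

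At D0 the normalized log2 value of Cd3g was 10.49, 10.03, 9.96, 9.89 and 10.57 in control rats 1 to 5, and 10.80, 11.02, 10.99, 10.75 and 10.72 in exposed rats 1 to 5. All 5 exposed values lay above all 5 control values, which held for 4.76% of all genes at D0. Control replicates 1 and 5, which both lay on slide 1, were closest to the exposed rats. The log2 change was 0.67 (SE 0.11, adjusted p = 1.18e-05). With slide as a block it was 0.71 (adjusted p = 1.5e-06), and within the 4 slides that held both groups the difference ran from 0.27 to 0.99. With array weights, which give less weight to arrays with a wider spread, the change was 0.51, under the fold limit (adjusted p = 0.0015).

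Cd3d at D0 was 10.61, 10.35, 10.25, 10.03 and 10.68 in control rats and 10.753, 10.996, 11.121, 10.864 and 10.959 in exposed rats. The groups did not overlap, and the control rats again ordered with replicates 1 and 5 on top. Both lay on slide 1 with exposed replicate 1, the lowest exposed rat. Within that slide the difference was 0.11, and within slides 2, 3 and 4 it ran from 0.71 to 0.90. The log2 change was 0.56 (SE 0.12, FC = 1.47, adjusted p = 0.00056), just under the fold limit. It passed with slide as a block (0.585, adjusted p = 4.3e-05), where 2 of the 10 genes were DEGs. Cd3e at D0 was 6.96, 6.94, 6.74, 7.15 and 7.05 in control rats and 7.10, 7.44, 7.67, 7.43 and 7.62 in exposed rats. The exposed replicate 1 overlapped the controls and the other 4 lay above them. Its log2 change was 0.48 (SE 0.15, FC = 1.40, adjusted p = 0.019), under the fold limit, and the adjusted p ran from 0.0070 to 0.066 when single rats were left out.

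At D3 and D28 Cd3g was the CD3 gene that stayed apart from the controls. Its D3 values were 10.91, 10.91, 10.75, 10.41 and 10.62 in control rats and 11.11, 11.17, 11.20, 11.03 and 10.95 in exposed rats. Its D28 values were 10.50, 10.48, 10.45, 10.63 and 10.65 in control rats and 10.88, 10.85, 10.68, 10.74 and 10.68 in exposed rats. At both days all exposed rats lay above all controls, as they did for 3.36% of all genes at D3 and 2.23% at D28. The log2 change was 0.38 at D3 (SE 0.11, FC = 1.30, adjusted p = 0.017) and 0.23 at D28 (SE 0.11, FC = 1.17, adjusted p = 0.29), so neither was a DEG and the second did not pass the test. Without single rats of D3 its adjusted p there ran from 0.011 to 0.081. The Cd3d log2 change was 0.26 at D3 and 0.17 at D28, and that of Cd3e 0.12 and 0.00, with adjusted p-values from 0.17 to 0.99.

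At D90 and D180 the CD3 genes of exposed and control rats overlapped. The log2 changes at D90 were 0.01 for Cd3d, -0.01 for Cd3e and 0.07 for Cd3g. At D180 they were 0.10, 0.19 and 0.20, with the 95% interval of Cd3g from -0.02 to 0.42. Effects of later days were also tested against the D0 effect, which all these tests have in common. The effect on Cd3g was lower at D90 than at D0 by a log2 difference of -0.60 (SE 0.15, adjusted p = 0.013), the 1 call among the 10 genes at D90, where 2.17% of all genes were called in either direction. The change fell under the fold limit without any one of control replicates 2, 3 or 4 or exposed replicates 2 or 3 of D0, or control replicates 4 or 5 or exposed replicate 3 of D90, with values from -0.70 to -0.53 over all rats left out. The call was also lost with normexp background correction (-0.52), with the series matrix values (-0.53), with array weights (-0.46) and with the arrays of these days alone (adjusted p = 0.086). No gene of the 10 was called for the effect at D3, D28 or D180 against D0, where 0.678%, 1.61% and 2.24% of all genes were. At an unadjusted p under 0.05 limma gave 0, 3 and 2 of the 10, and the share of all genes at that limit was not computed.

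**Figure D2:**
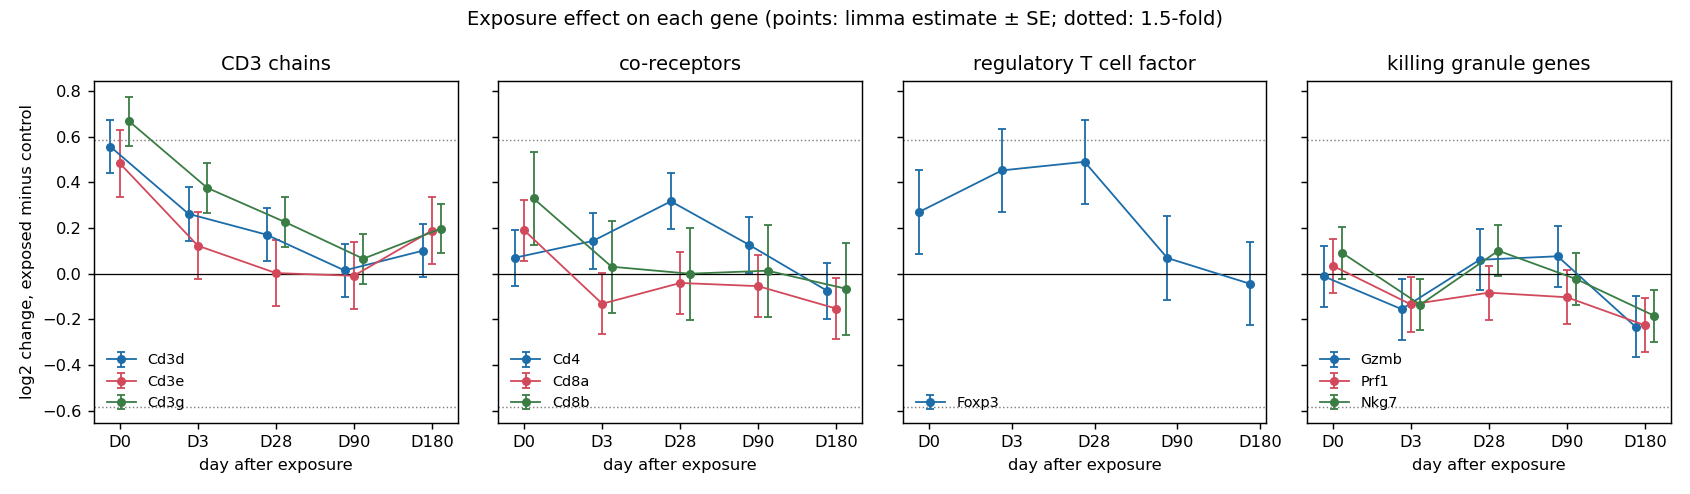
Log2 change of exposed against control rats (vertical axis, limma estimate ± SE, 5 rats per group) at each day after exposure, by role of the gene, with dotted lines at a 1.5-fold change. The CD3 genes stand between 0.48 and 0.67 at D0 and between -0.01 and 0.07 at D90, while Gzmb, Prf1 and Nkg7 stay between -0.23 and 0.10 throughout.

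The co-receptor genes lie on chromosome 4 of rn4, with the Cd4 probe at 160988512-160988571 on the minus strand and the Cd8a and Cd8b probes, of neighbouring genes, at 104593483-104593542 and 104542505-104542564 on the plus strand. None of them passed the test between exposed and control rats at any day. Cd4 at D0 was 7.26, 6.87, 6.92, 6.53 and 7.25 in control rats and 7.28, 7.10, 7.21, 6.72 and 6.88 in exposed rats. The groups overlapped almost fully, with a log2 change of 0.07 (95% interval -0.18 to 0.32). Its largest change was at D28, with 7.10, 7.33, 6.80, 7.09 and 7.26 in control rats and 7.51, 7.38, 7.51, 7.15 and 7.61 in exposed rats. There 4 exposed rats lay above all controls, and the log2 change of 0.32 (SE 0.12) did not pass (adjusted p = 0.15).

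Cd8a, the chain shared by CD8 T cells and rat NK cells, was 8.54, 8.85, 8.76, 8.65 and 8.80 in control rats at D0 and 8.425, 8.976, 9.358, 8.794 and 8.998 in exposed rats. Exposed rats held both the lowest and the highest value, and the log2 change was 0.19 (95% interval -0.08 to 0.46, adjusted p = 0.47). Cd8b, the chain that marks CD8 T cells more narrowly, was 6.07, 6.17, 6.13, 5.59 and 6.32 in control rats and 5.89, 6.30, 6.85, 6.35 and 6.53 in exposed rats. With a log2 change of 0.33 its interval was the widest of the 10 genes (-0.08 to 0.74), so a rise of the size seen in Cd3g is within it. From D3 to D180 the log2 changes ran from -0.15 to -0.04 for Cd8a and from -0.07 to 0.03 for Cd8b.

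Foxp3 was read near background, from a probe on chromosome X of rn4 at 26952215-26952274 on the minus strand. It was well above background on only 3 of 5 control arrays at D3 and at D28, and on 4 exposed arrays at both days. At D3 its values were 4.77, 4.51, 5.51, 5.61 and 5.06 in control rats and 6.18, 5.48, 5.75, 5.40 and 4.91 in exposed rats. At D28 they were 4.43, 4.93, 5.51, 4.48 and 5.24 in control rats and 5.29, 5.64, 5.29, 5.26 and 5.55 in exposed rats. The control rats of both days spread more widely than the exposed rats of D28, and 2 exposed rats of each day lay above all controls. The log2 changes of 0.45 at D3 (SE 0.18, adjusted p = 0.12) and 0.49 at D28 (SE 0.18, adjusted p = 0.13) did not pass. With array weights they were 0.72 and 0.71 and passed (adjusted p = 0.0019 and 0.0039), as did D3 without exposed replicate 5 (0.61) and D28 without control replicate 3 (0.64). With slide as a block they were 0.23 and 0.39, and with normexp background correction 0.19 and 0.17, and none of these passed.

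None of the killing granule genes passed the test between exposed and control rats at any day. Prf1, with its probe on chromosome 20 of rn4 at 28663319-28663378 on the plus strand, was 12.01, 12.00, 11.98, 11.94 and 12.32 in control rats of D0 and 11.86, 12.16, 12.25, 12.10 and 12.04 in exposed rats. The highest and the lowest of these 10 values were a control and an exposed rat, and the log2 change was 0.03 (95% interval -0.21 to 0.27, adjusted p = 0.94). Nkg7 (chromosome 1, 93813978-93814037, plus strand) was 11.78, 11.66, 11.61, 11.70 and 12.09 in control rats and 11.75, 11.92, 12.06, 11.90 and 11.68 in exposed rats, a log2 change of 0.09 (95% interval -0.14 to 0.32). Gzmb (chromosome 15, 35195450-35195509, minus strand) was 10.37, 10.49, 10.43, 10.63 and 10.71 in control rats and 10.11, 10.65, 10.75, 10.76 and 10.32 in exposed rats. Its log2 change was -0.01 (95% interval -0.28 to 0.26), and a further Gzmb probe at 35196479-35196538 gave 0.12 (adjusted p = 0.73) and correlated with the first at 0.90 over the 50 arrays. These intervals at D0 leave out an increase of 1.5-fold for each of the 3 genes.

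Promoters are shown for the killing granule genes Gzmb, Prf1 and Nkg7, which followed each other from rat to rat (correlations given further on), with Cd3e for contrast. Cd8a also followed them, with r = 0.83 for Nkg7 after group and slide were removed. Its promoter is not shown and held none of the RUNX matches below. Whether that motif goes with the correlations was not tested. RefSeq promoters of the GRCr8 build, from 250 bases before to 50 after each gene's start, were given for 8 of the 10 genes and searched on both strands for 9 motifs. The RUNX motif TGTGGT, bound by factors active in T and NK cells, was found in Gzmb (3 matches), Prf1 and Nkg7 (1 each) and in none of Cd3d, Cd3e, Cd3g, Cd8a or Foxp3, while 17.3% of all 33469 promoters hold it. The ETS motif AGGAAGT was found in Prf1 (2 matches) and Cd3e, and in 8.41% of all promoters. The E-box CAGCTG was found in Prf1, where it touches an ETS match, and in Cd3g (15.1% of all), and the STAT motif TTCCNGGAA in Nkg7 (1.27%). The GATA motif AGATAA, held by 11.6% of all promoters, and the T-box motif GGTGTGA, held by 3.83%, had no match in the 8. Nor had the TCF motif CTTTGAA (held by 5.40% of all), the NFAT motif GGAAAA (held by 24.7%) or the cAMP response element TGACGTCA (held by 1.83%). A match is a description of the letters and not evidence of binding. Given here are the 250 bases before the start of each gene, 5′ to 3′ on the strand of the gene, with motif matches in capitals.
Gzmb, chr15:34462470-34462719, minus strand: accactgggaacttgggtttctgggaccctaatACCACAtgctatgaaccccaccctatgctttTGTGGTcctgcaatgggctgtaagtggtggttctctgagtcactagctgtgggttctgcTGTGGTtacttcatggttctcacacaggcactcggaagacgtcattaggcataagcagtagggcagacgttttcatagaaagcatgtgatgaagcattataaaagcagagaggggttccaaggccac
Prf1, chr20:29788790-29789039, plus strand: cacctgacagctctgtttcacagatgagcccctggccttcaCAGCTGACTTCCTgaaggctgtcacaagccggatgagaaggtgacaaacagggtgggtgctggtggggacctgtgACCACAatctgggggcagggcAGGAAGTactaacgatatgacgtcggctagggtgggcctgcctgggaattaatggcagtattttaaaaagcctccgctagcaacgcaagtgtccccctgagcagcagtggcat
Nkg7, chr1:102981247-102981496, plus strand: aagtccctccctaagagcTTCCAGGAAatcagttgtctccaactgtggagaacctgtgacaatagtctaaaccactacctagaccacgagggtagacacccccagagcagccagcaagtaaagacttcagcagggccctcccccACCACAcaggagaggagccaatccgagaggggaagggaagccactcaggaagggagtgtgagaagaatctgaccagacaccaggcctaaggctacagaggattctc
Cd3e, chr8:54211771-54212020, minus strand: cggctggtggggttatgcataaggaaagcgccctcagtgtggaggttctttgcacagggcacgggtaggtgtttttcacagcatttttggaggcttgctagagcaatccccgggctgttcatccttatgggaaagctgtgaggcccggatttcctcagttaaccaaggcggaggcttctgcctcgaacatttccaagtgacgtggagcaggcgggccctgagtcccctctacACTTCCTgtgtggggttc

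In the Gzmb stretch the RUNX matches begin at -217, -186 and -127, counted from the first base of the gene. In Prf1 the E-box and an ETS match begin at -209 and -203, the RUNX match at -134 and the further ETS match at -113. In Nkg7 the STAT match begins at -232 and the RUNX match at -106, and in Cd3e the ETS match begins at -18.

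At D180 these 3 genes, Cd8a, Cd8b, Cd4 and Foxp3 all had a lower mean in exposed than in control rats, by -0.23 for Gzmb, -0.23 for Prf1 and -0.18 for Nkg7. Prf1 was 12.51, 12.48, 12.47, 12.39 and 12.37 in control rats and 12.34, 12.38, 12.28, 11.99 and 12.10 in exposed rats, so 4 exposed rats lay below all controls. No such difference passed the test (lowest adjusted p = 0.68).

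Whether genes changed unequally in the same rats was tested on the difference of 2 log2 values per rat, with a two-sided exact permutation test over all 252 splits of 5 and 5 rats and adjustment over 20 tests (4 pairs, 5 days). At D0 Prf1 minus Cd3e was 5.08 ± 0.19 in control rats and 4.63 ± 0.13 in exposed rats (mean ± SD, n = 5 each, exact p = 0.0079). All 5 exposed rats lay below all 5 controls, which is the smallest p this test can give. After adjustment it did not pass (adjusted exact p = 0.11). With adjustment over 20 tests, a single pair at the smallest p could not pass on its own. At D180 Prf1 minus Cd3e was again lower in exposed rats, by -0.41, with 4 of 5 below all controls (exact p = 0.016, adjusted 0.11). Foxp3 minus Cd3e was lower in exposed rats at D180 by -0.23, with 4 of 5 below all controls (exact p = 0.016, adjusted 0.11). Cd8a minus Cd4 was lower in exposed rats at D28 by -0.36 (exact p = 0.024, adjusted 0.12). Cd4 minus Cd3e differed by 0.31 at D28 and by -0.26 at D180 (exact p = 0.048 each, adjusted 0.16). No pair passed at any day, and no conclusion is drawn from that, since groups of 5 rats leave this test little room to pass.

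Other T cell genes, from a list of receptor, signalling, homing and transcription factor genes of T cells, were set beside the 10. This and the other lists were chosen with earlier results of these data known, so their counts are descriptions and not independent evidence. At D0, 6 of 29 genes tested were over-expressed and none was under-expressed, where 2.77% of all genes were over-expressed. The median log2 change was 0.33 against -0.01 for all genes. The 6 were Icos, Il7r, Cxcr6, Cd6, Ccr6 and Cd5 (0.66). For the first 5, all 5 exposed rats lay above all 5 controls, which held for 4.76% of all genes. These 5 were picked for the largest change on the same arrays, so their separation is no further evidence. Icos, a co-stimulatory receptor of activated T cells, ranged from 5.62 to 6.36 (median 6.27) in control rats and from 6.92 to 7.51 (median 7.26) in exposed rats, a log2 change of 1.06 (SE 0.14, adjusted p = 2.1e-07). Il7r, the interleukin 7 receptor of naive and memory T cells and innate lymphoid cells, rose by 0.86 (SE 0.18, adjusted p = 0.00038). The homing receptors Cxcr6 and Ccr6 rose by 0.80 and 0.76, and Cd6, an adhesion receptor of T cells, by 0.77 (SE 0.14, adjusted p = 8.1e-05).

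Icos was also a DEG at D3 and D28. Its log2 change was 0.75 at D3 (SE 0.14, adjusted p = 0.00017) and 0.60 at D28 (SE 0.14, adjusted p = 0.0076), with all exposed rats above all controls at both days. At D28 its control values ran from 6.31 to 6.84 and its exposed values from 7.15 to 7.37. Cxcr6 was over-expressed at D3 by 0.75 (SE 0.17, adjusted p = 0.0018), with 4 of 5 exposed rats above all controls. Icos and Cxcr6 were the 2 DEGs of the list at D3 and Icos the 1 DEG at D28. With normexp and with the series matrix values the list had 0 DEGs at both days, and 3 at D0 with normexp. At D3 it had 4 without exposed replicate 4, and at D28 it had 0 without control replicate 3, control replicate 5 or exposed replicate 1. At D90 none of the 29 was a DEG and at D180 Gata3, a factor of type 2 helper and innate lymphoid cells, was (0.85, SE 0.18, adjusted p = 0.0072), with exposed rats at 7.32 to 7.66 and controls at 6.36 to 6.85. The count at D180 was 0 with the 75th percentile scaling, with normexp and with the replicate number as a block.

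Among 10 genes of regulatory and activated T cells other than Foxp3, Tnfrsf9 and Il2ra were over-expressed at D0 and both, with Tnfrsf4, at D3. By the same rule 2.77% of all genes were over-expressed at D0 and 1.98% at D3. Tnfrsf9, the co-stimulatory receptor 4-1BB, which NK cells, myeloid cells and endothelium can also express, ranged from 5.35 to 6.05 in control rats of D0 and from 7.58 to 8.40 in exposed rats. Its log2 change was 2.28 (SE 0.20, adjusted p = 3.2e-12), the largest of the T cell and cytotoxic lists at D0. At D3 it was 1.04 (SE 0.20, adjusted p = 0.00017). Il2ra, the alpha chain of the interleukin 2 receptor, ranged from 3.57 to 4.32 in control rats of D0 and from 4.44 to 5.27 in exposed rats (adjusted p = 0.042), but was well above background on only 1 control and 3 exposed arrays, so no fold is given. At D3, on 3 control and 4 exposed arrays, it rose by 1.28 (SE 0.31, adjusted p = 0.0035). The count of the list at D0 was 1 in place of 2 in 8 of the 10 fits that left out a rat, and 1 with normexp, the series matrix values, the replicate number as a block or array weights. At D3 it was 1 with normexp or the series matrix values. Tnfrsf4, the receptor OX40, rose by 0.62 at D3 (SE 0.12, adjusted p = 0.00019), and by 0.56 with slide as a block, under the fold limit. None of the list was a DEG at D28, D90 or D180, and at D28 the median log2 change was 0.20.

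The T helper cytokine genes were near background. Of 10, Il13 and Il22 passed at D0 and Il17a at D28, and none at the other days. Of all genes, 2.77% were over-expressed at D0 and 0.861% at D28. Il13, the type 2 cytokine that drives mucus production, was well above background on 1 control and 5 exposed arrays of D0, with values from 2.44 to 4.52 and from 4.25 to 6.11 (adjusted p = 0.0012), and no fold is given against a control group near background. Il22 was not well above background on any array of either group at D0, so no fold is given. Il17a at D28 was well above background on 1 exposed array and no control array, with 2.49 to 3.29 in control rats and 4.08 to 6.30 in exposed rats (adjusted p = 0.018), and no fold is given. The list's count at D28 was 0 with normexp, with the series matrix values, with the arrays of that day alone and without exposed replicate 2.

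The other cytotoxic and NK cell genes were 31 granzymes, killer lectin receptors and their factors. Over-expressed by the same rule were 2.77% of all genes at D0 and 1.98% at D3. At D0 only Cst7, an inhibitor of granule proteases that myeloid cells also express, was over-expressed (0.63, SE 0.18, adjusted p = 0.0098), with control rats at 8.14 to 9.11 and exposed rats at 8.89 to 9.54. The median log2 change of the list was 0.16, and 27 of the 31 changes were above 0. At D3 Cst7 was again the 1 DEG (0.66, SE 0.18, adjusted p = 0.0087, or 0.52 and under the fold limit with slide as a block), while the list's median was -0.10 and 8 of 31 changes were above 0. At D28, D90 and D180 no gene of the list was a DEG, and the median lay between -0.01 and 0.05. When single rats of D0 or D3 were left out, the count of DEGs in this list ran from 0 to 2, and at D0 it was 0 with normexp, with the series matrix values and with the arrays of that day alone.

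**Figure D3:**
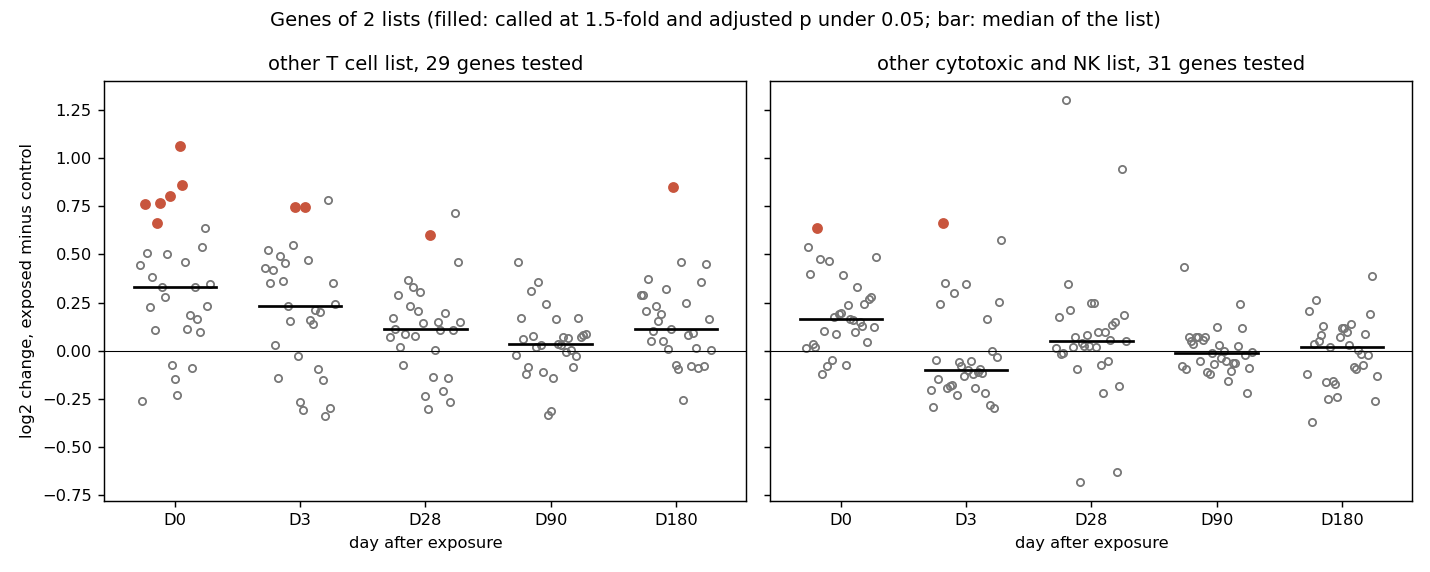
Log2 change of exposed against control rats (vertical axis) for 29 other T cell genes and 31 other cytotoxic and NK cell genes, 1 point per gene, at each day after exposure, with DEGs filled in red and a bar at the median of the list. The T cell list has 6 DEGs and a median of 0.33 at D0, and the cytotoxic list 1 DEG and a median of 0.16.

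Markers of other cells of the lobe moved in the same comparisons, and their part in the T cell values was not tested. By the same rule 2.77% of all genes were over-expressed at D0. Among 12 B cell genes the median log2 change was 0.50 at D0, with 11 changes above 0 and the DEGs Cd79b (0.68) and Blnk (0.69), and the mean normalized log2 value of the list ranged from 6.50 to 7.00 in control rats and from 6.93 to 7.25 in exposed rats. Among its brightest genes were Fcrla (0.22, adjusted p = 0.60) and Pou2af1 (0.44, adjusted p = 0.00047), both under the fold limit. The neutrophil list ranged from 8.98 to 9.56 in control rats and from 9.60 to 10.11 in exposed rats, with a median log2 change of 0.25 over its 9 genes and 7 changes above 0. Its 3 DEGs were S100a9 (1.69), S100a8 (1.37) and Fcnb (1.56), and Mmp8 stood at -0.27. For the 12 macrophage genes, cells that carry CD4 in the rat, the ranges were 10.14 to 10.28 and 10.17 to 10.62, with a list median of 0.06 and 6 changes above 0. Cd14 was the 1 DEG (0.92), with Mertk at -0.34, Cd163 at -0.30, Cd68 at 0.66 (adjusted p = 0.094, but 0.68 and a DEG with slide as a block) and Lyz2 at -0.02.

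Lymphoid tissue of the lobe was covered by 2 lists. None of 7 thymus genes was a DEG at any day, and their list ranged from 4.70 to 4.86 in control rats of D0 and from 4.66 to 4.99 in exposed rats. Among 7 lymphoid stroma genes Ccl21 (-0.02) and Ccl19 (-0.38, adjusted p = 0.22), which mark lymph node and lymphatic stroma, did not pass at D0. Ltb, which lymphocytes themselves express and which encodes lymphotoxin beta, rose from 11.99 to 12.32 in control rats to 13.29 to 13.59 in exposed rats at D0, a log2 change of 1.27 (SE 0.09, adjusted p = 3.9e-15). It was 0.80 at D3 (adjusted p = 2.9e-09) and 0.28 at D28 (adjusted p = 0.059).

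The genes of the circadian clock differed between exposed and control rats, and the output factor Dbp had log2 changes of -1.95 at D0, -2.49 at D3 and 3.27 at D28. Their part in the lymphocyte values was not tested. The red blood cell list had no DEG in exposed against control rats at any day, with ranges of 12.39 to 12.79 and 12.19 to 12.60 at D0. Among 8 dendritic cell genes Clec9a was a DEG at D0 (0.66, list median 0.26), where 2.77% of all genes were over-expressed. Among 9 glucocorticoid responsive genes Dusp1 (-1.07) and Pdk4 (-1.15) were under-expressed at D0 (list median -0.61), and among 11 genes of lung epithelium and endothelium Cldn5 was (-0.87, list median -0.27). The share of all genes under-expressed is not given here.

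Control rats of different days were compared to ask how far these genes varied in unexposed lungs. The control rats of D3 had higher levels than those of D0 for all 10 genes, with a median log2 change of 0.51. Cd8a, Cd8b and Gzmb passed the call at D3 against D0, where 1.52% of all genes were called higher. With no fold limit, 7 of the 10 had an adjusted p under 0.05, and the share of all genes by that rule was not computed. Cd8a rose from the D0 values above, 8.54 to 8.85, to 9.74, 9.60, 9.18, 9.40 and 9.39 at D3, with no overlap and a log2 change of 0.74 (SE 0.13, adjusted p = 0.00016). Gzmb reached 11.18, 11.38, 11.09, 10.87 and 11.16 at D3, above every control rat of D0 (0.61, SE 0.13, adjusted p = 0.0019), though it was 0.55 and under the fold limit with slide as a block. The share of all genes without overlap between these control groups was not computed, so the separation is only a description. Cd8b rose by 0.69 (SE 0.20, adjusted p = 0.026), and by 0.37 with normexp background correction and 0.39 with the deposited series matrix, both under the fold limit.

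Of the genes under the fold limit, 4 had an adjusted p under 0.05. Nkg7 was higher by 0.50 (adjusted p = 0.0022), Cd3g by 0.53 (adjusted p = 0.00088), Cd3d by 0.51 (adjusted p = 0.0030) and Prf1 by 0.38 (adjusted p = 0.040) in control rats of D3. Cd3e (0.43, adjusted p = 0.068), Cd4 (0.21) and Foxp3 (0.05, and -0.17 with array weights) did not pass. Of the 31 other cytotoxic and NK cell genes, 6 were called higher and 29 changes were above 0, with a median of 0.42. The 6 were Xcl1 (0.88), a chemokine of NK and CD8 T cells, Cd160 (0.85), Klri1 (0.68), Sh2d1a (0.66), Klri2 (0.66) and the granule protease gene Ctsw (0.60), of which Klri1 and Sh2d1a fell under the fold limit with slide as a block. Of the 29 other T cell genes Cd27, a co-stimulatory receptor, was called (0.71), with a list median of 0.35. The B cell genes Ms4a1 (1.06) and Cd22 (0.93) were called as well. So were the neutrophil genes Fcnb (1.81) and Mmp8 (-0.83) and the macrophage genes Emr1 (0.67) and Cd163 (-0.76). Cldn5, of the lung epithelium and endothelium list, was called lower (-0.62). The part of B cells and of these other cells in the values was not tested. The clock list had a median change of -0.003 between these groups and the red blood cell list -0.25. In the clock list Per2 (-0.92) and Npas2 (0.62) were called in opposite directions, which its median does not show. Alas2 of the red blood cell list was called lower (-0.70). Their part in the lymphocyte values was not tested. The count of the 10 genes called ran from 1 without control replicate 2 of D3 to 5 without control replicate 4 of D3.

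Control rats of D28 against D0 gave 1 call, Cd8b (0.70, SE 0.20, adjusted p = 0.025), where 1.54% of all genes were called higher. It rested on control replicate 2 of D28, at 7.72 against 6.20 to 6.71 in the other 4, and on control replicate 4 of D0, at 5.59 against 6.07 to 6.32. Without either rat no gene was called, the change of Cd8b being 0.45 and 0.58, and it was 0.37 with normexp and with the series matrix values. Cd3e, Cd3g, Cd8a and Prf1 were higher by 0.48, 0.35, 0.46 and 0.37 with adjusted p-values from 0.025 to 0.046. Between control rats of D28 and D3, and of D180 and D90, none of the 10 was called, where 0.639% and 0.0198% of all genes were. At an unadjusted p under 0.05 limma gave 2 and 0 of the 10, and the share of all genes at that limit was not computed. Control rats of D28 also differed in the clock gene Dbp, with a group mean of 10.805. Its mean was 15.311 in control rats of D0 and 15.308 in those of D3. The part of the clock in the lymphocyte values was not tested.

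The comparisons with D0 share the same 5 control rats, whose group mean was the lowest of the 10 groups for every gene but Foxp3 and Gzmb. The share of all genes with their lowest mean in that group was not computed, so the count is not read as a trait of these genes. For Cd3g the exposed rats of D0 (10.86 ± 0.14, SD, n = 5) stood near the control rats of D3 (10.72 ± 0.21) and of D90 (10.78 ± 0.16). For Prf1 the exposed rats of D0 (12.08 ± 0.15) stood below the control rats of D3 (12.43 ± 0.17) and of D28 (12.42 ± 0.10). For Cd8a the exposed rats of D0 (8.91 ± 0.34) stood below the control rats of D3 (9.46 ± 0.22), and for Gzmb they (10.52 ± 0.29) stood at the control rats of D90 (10.55 ± 0.30). These levels are descriptions, and those of D90 come from other slides. What set the D0 controls apart was not tested.

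**Figure D4:**
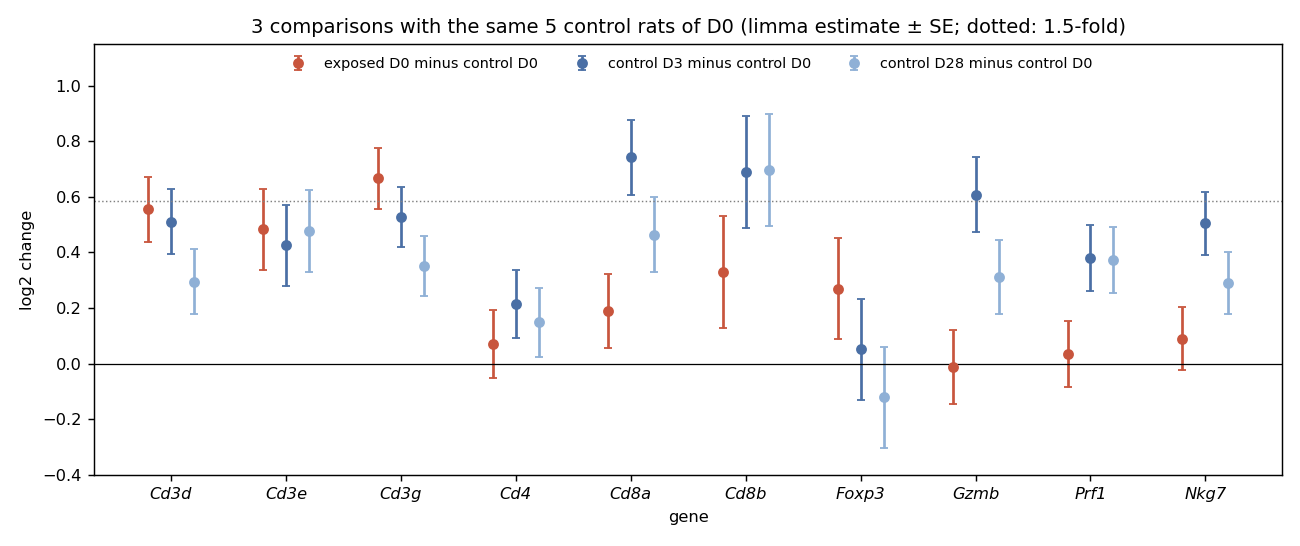
Log2 change (vertical axis, limma estimate ± SE) of the 10 genes in 3 comparisons that use the same 5 control rats of D0, for exposed rats of D0 in red and for control rats of D3 and D28 in blue and light blue, with a dotted line at a 1.5-fold change. Cd8a and Gzmb stand at 0.74 and 0.61 in control rats of D3 but at 0.19 and -0.01 in exposed rats of D0, while Cd3g stands at 0.53 and 0.67.

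How the genes varied from rat to rat was described by the deviations of each rat that remained after its group mean and slide were removed. These are correlations over the same 50 arrays, which share labelling, hybridisation and normalization, and they carry no test. Cd3d and Cd3g followed each other most closely (r = 0.94), and Cd3e followed them less (0.66 and 0.58). The killing granule genes, whose promoters are printed above, formed a further set, with r = 0.91 for Prf1 and Nkg7, 0.77 for Prf1 and Gzmb and 0.76 for Nkg7 and Gzmb. For Cd8a the r was 0.83 with Nkg7, 0.73 with Prf1, 0.60 with Cd3g, 0.58 with Gzmb, 0.58 with Cd3e and 0.49 with Cd8b. This order depended on slide, since without its removal Cd8a gave 0.48 with Nkg7, 0.54 with Cd3e and 0.55 with Cd8b. After slide was removed, Cd4 and Foxp3 followed no other gene of the 10 with an r higher than 0.31, and Cd4 with Cd8a gave 0.10. This too depended on slide. Without its removal Foxp3 gave 0.45 with Nkg7 and -0.44 with Cd3e, and Cd4 gave 0.38 with Cd3g.

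**Figure D5:**
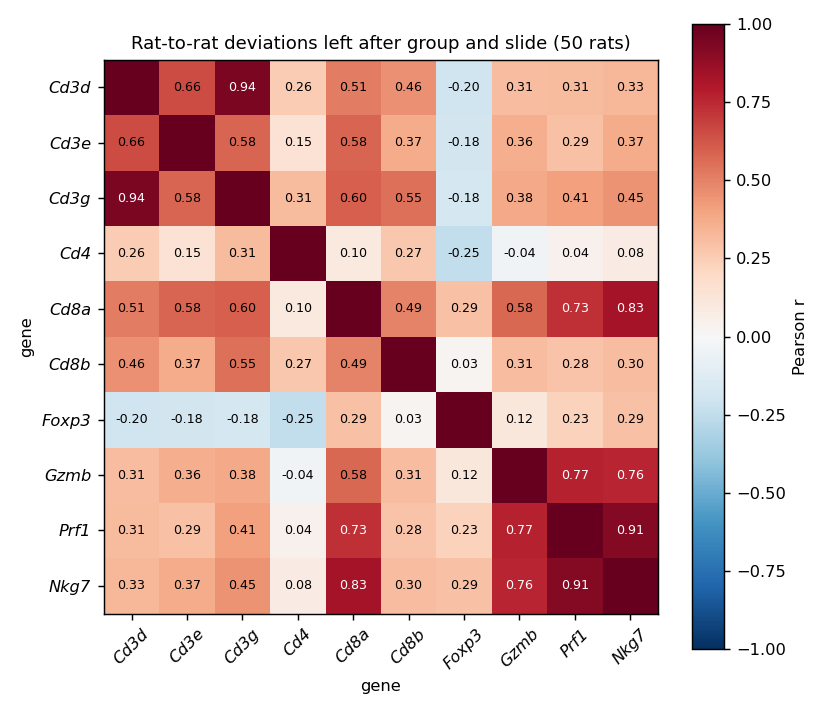
Pearson correlation of the 10 genes, both axes listing the genes in the same order, over the deviations of 50 rats left after group and slide, with red for positive and blue for negative values. The CD3 pair Cd3d and Cd3g (0.94) and the set of Cd8a, Gzmb, Nkg7 and Prf1 (0.58 to 0.91) stand out from Cd4 and Foxp3.

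The genes most alike by the same measure, among 17309 with a symbol, were for Prf1 the interleukin 2 receptor beta chain Il2rb (0.91), the granzymes Gzmm (0.91), Gzmk (0.90) and Gzma (0.89) and the NK receptor Klrb1a (0.90). For Cd8a they were Ptprcap (0.84), the T and NK cell kinase Zap70 (0.82), the NK receptor gene Klra22 (0.82), Tmem159 (0.82) and Sept6 (0.79). For Cd3e they were Cd6 (0.76), Ms4a4c (0.70), Nr5a2 (0.70), Lat (0.70), which encodes the adaptor that links the T cell receptor to its signalling chain, and Ccdc68 (0.65). For Cd4 they were Gpr20, Ddx46, Ddn, Dram1 and Elk1, with r from 0.59 to 0.65. The Prf1 neighbours stayed within the first 10 when slide was not removed, whereas Cd6 fell to rank 5816 for Cd3e and Ptprcap to rank 7772 for Cd8a.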

How the data were processed

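Total RNA from 50 rat lungs was labelled with Cy3 by the authors and hybridised to one-colour Agilent rat arrays. The deposited scanner files hold processed signal intensities, made with Feature Extraction 11.0.1.1 per the file headers, which name the build rn4. The authors' deposited series matrix holds median signal intensities on a linear scale that look quantile normalized and was used only as an alternative. The exon or UTR position of probes was not analysed here.

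Spots of a probe were averaged after control, outlier and non-uniform spots were left out, log2 values were taken and quantile normalized, and a probe was kept if 5 or more arrays showed it over the negative controls' 95th percentile (29549 of 30367). The brightest probe stood for a gene, which gave 25208 genes. A model of the 10 group means over 50 arrays was fitted with limma 3.58.1 in R 4.3.3. Genes were called at 1.5-fold with a Benjamini-Hochberg adjusted p under 0.05 over all genes. The pipeline was tested on simulated data with independent noise and no slide effect, so that test does not cover slide. Pairs of genes were compared by exact permutation tests.

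Between 68.7% and 84.5% of spots were well above background, and the 5 arrays per group limit the precision. Arrays of a group correlated at 0.974 to 0.996, so none was a copy. Each array is 1 rat per the labels. Equal replicate numbers did not pair rats across groups. Genes outside the 10 were named from fixed lists, the 5 with the largest change past the threshold, and, for other cell types, the brightest, 1 of which is not reported here. The 10 genes and the lists were chosen with earlier results of these data known. Alternatives were the scaling, background correction, dim probe filter, probe rule, slide, scan day or replicate number as a block, array weights, the arrays fitted, the fold limit and single rats left out. The study's methods fitted batch terms that were not named in the sources used here, so slide and scan day took their place.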

Additional observations from a re-analysis of the deposited data

Results flagged for a closer look

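In 4 of 100 sets of 5 rats, each 1 gene in 1 group, a rat lay far from the other 4, and chance alone would do so in about 1 of 20. Cd3g was 11.16 in exposed replicate 2 of D180, with the next rat at 10.9. Cd8a was 9.391 in control replicate 5 of D90, with the next at 9.113. Gzmb was 10.02 in control replicate 4 of D90, with the next at 10.57. Prf1 was 12.32 in control replicate 5 of D0, with the next at 12.01.

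The exposure effect on Cd3g differed between days in the interaction test, with a log2 difference of -0.6012 at D90 against D0 (limma, adjusted p = 0.0131). The value was negative in all settings tried, and the call was lost in those given with the result.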

How the results depend on the processing

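The over-expression of Cd3g at D0 kept its sign in every setting, from 0.59 to 0.76 with single rats left out. The number of the 10 genes called at D0 was 2 with slide as a block, 2 with scan day as a block, 0 with array weights, 3 with no fold limit, and 1 to 2 with single rats left out. At D3 it was 1 with array weights, 1 with no fold limit and 0 to 1 with single rats left out, and at D28 it was 1 with array weights and 0 to 1. For the effect at D90 against D0 it was 0 with normexp, the series matrix, array weights or the arrays of these days alone, and 0 to 2 with single rats left out. For control rats of D3 against D0 it was 7 with no fold limit and 1 to 5 with single rats left out. For control rats of D28 against D0 it was 0 with normexp, the series matrix or the arrays of these days alone, 5 with no fold limit, and 0 to 1. The share of all genes with no fold limit was not computed, and the causes were not tested.

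With the replicate number as a block, 1 gene was called at D0, 0 at D3, D28, D90 and D180, and 1 for the effect at D90 against D0, as without it. The adjusted p of Cd3e at D0 was then 0.0902. Correlations of rats with the same number ran from -0.342 to 0.456, so the numbers are not taken to pair rats. No paired analysis was possible because each block holds rats of 1 day for the comparisons of control rats between days.

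Changes that passed no test turned sign in some settings. Normexp gave 0.02756 for Gzmb at D0, -0.001313 for Cd3e and 0.002732 for Cd8b at D28, and 0.002391 for Cd3e and -0.02356 for Cd8b at D90. The series matrix gave -0.0001348 for Cd4 and 0.02089 for Gzmb at D0, 0.02224 for Cd8b at D28, and 0.002164 for Cd3e and -0.0517 for Cd8b at D90. The mean of all probes gave 0.05655 for Gzmb at D0. Slide as a block gave 0.0196 for Cd8a and 0.06356 for Cd8b at D28, and scan day 0.02006 and 0.06811. Slide as a block gave -0.05135 for Cd4 minus Cd3e and -0.0353 for Foxp3 minus Cd3e at D3. Array weights gave -0.1073 for Cd4, 0.03905 for Gzmb and -0.003402 for Prf1 at D0, -0.04313 for Cd3e and -0.1228 for Cd8b at D3, -0.1115 for Cd3e at D28, -0.0003654 for Cd3d at D90, 0.005 for Cd4 at D180, and -0.1652 for Foxp3 in control rats of D3 against D0.

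With single rats left out, the D0 changes ran from -0.03856 to 0.1487 for Cd4, -0.07383 to 0.091 for Gzmb and -0.009006 to 0.1009 for Prf1. At D3 Cd8b ran from -0.08803 to 0.1346. At D28 Cd3e ran from -0.09588 to 0.09209, Cd8a from -0.1124 to 0.01305, Cd8b from -0.1383 to 0.2411 and Gzmb from -0.01734 to 0.1209. At D90 the ranges were -0.03282 to 0.07227 for Cd3d, -0.07294 to 0.07191 for Cd3e, -0.1231 to 0.03646 for Cd8a, -0.03363 to 0.07499 for Cd8b, -0.01392 to 0.1353 for Foxp3, -0.05607 to 0.1365 for Gzmb and -0.09887 to 0.05483 for Nkg7. At D180 Cd8b ran from -0.1877 to 0.111. Foxp3 in control rats ran from -0.07901 to 0.1983 at D3 and from -0.2694 to 0.000749 at D28 against D0. Cd4 minus Cd3e ran from -0.07936 to 0.09387 at D3, Prf1 minus Cd3e from -0.2588 to 0.01714 and Foxp3 minus Cd3e from -0.004619 to 0.1826 at D90, and Cd8a minus Cd4 from -0.2255 to 0.009058 at D180. Foxp3, on 41 of 50 arrays above background, is the gene most limited by signal.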
